A study of Mus musculus with 16 samples.

Results

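The secretory pathway and membrane trafficking genes described here are those whose symbols match coat, tether, adaptor, golgin or Rab families. These are Sec, Cop, Trappc, Exoc, Cog, Golga, Vps (without Vps13), Ap and Rab genes, with Golgb1, Mia2, Mia3 and Nbas added. A matching symbol alone does not show that a gene acts in the pathway. The symbols selected 195 protein-coding genes, and 69 of these carried at least 1 peak of RNA immunoprecipitated with THOC5, out of 4051 genes with a peak in all. They held 594 of the 28000 peaks placed inside a named gene. The rule reads symbols alone and no measured value, but it was set with earlier results of these data known. Nbas, added by name, held 154 of these peaks.

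THOC5 belongs to the THO complex, a set of proteins that couples transcription to the export of mRNA from the nucleus. The study asked which transcripts THOC5 binds in vascular smooth muscle cells and how this set changes when the cells are driven towards a bone-like state by phosphate. RNA immunoprecipitation sequencing (RIP-seq) with THOC5 was done in primary mouse vascular smooth muscle cells of wild-type genotype in 4 conditions, each with 2 samples and hence 2 deposited peak lists. Ctrl cells were in growth medium; Pi cells were in osteogenic medium; GFP OE and THOC5 OE cells were also in osteogenic medium and overexpressed GFP, the vector's control protein, or THOC5. The labels do not say that the samples of a condition came from separate cultures, so any p-value measures only the spread between these samples. The 8 inputs have no peak list here, and the promoter of the vectors was not given in the labels used here.

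Secretory proteins enter the endoplasmic reticulum (ER) through the translocon, leave it in vesicles coated by COPII, and return to it in vesicles coated by COPI, the coatomer. Long golgins and multi-subunit tethers catch vesicles at the next membrane, Rab GTPases mark which membrane that is, and adaptors and Vps complexes sort cargo between the Golgi, endosomes and lysosomes. Vascular smooth muscle cells use this route to lay down collagen and other matrix proteins, and to release vesicles that take part in calcification.

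A gene is called bound in a list if the list holds a peak inside it. Lists held 2572 to 4795 peaks with 1 peak width each (415 to 553 bp), bound genes numbered 1231 to 2093 per list, and the lowest score kept in a list ran from 6.31 to 29.0. The unit of the score is not known, so a peak's strength is given as its percentile, the rank of its score within its own list, where 100 is strongest. Where a gene is given 1 percentile per list, or a range over lists, and no site is named, it is that of its best peak in each list; weaker peaks of the same gene can lie lower. Of markers of the cell type, 4 of 8 smooth muscle genes carried a peak, and 1 of 4 fibroblast, 0 of 4 endothelial and 1 of 4 leukocyte genes did. Mylk was bound in all 8 lists, whereas Myh11, Cnn1, Myocd and Cald1 had no peak. A list shows bound RNA and no expression level, so these counts neither support nor contradict the labelled cell type. Transcript levels, reads and inputs were not analysed here, and a gene without a peak is not shown to be unbound.

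Of the 195 genes, 35.4% carried a peak in at least 1 list, beside 18% of all protein-coding genes. Gene length moved with this share. The median length in the genome was 43.3 kb for the 69 bound members and 22.3 kb for the other 126, and 48.1 kb and 13.1 kb for other protein-coding genes with and without a peak. Under 25 kb, 16 of 87 members were bound (18.4%), beside 7.80% of other protein-coding genes of that length. The shares were 41.8% of 55 members and 26.7% of other genes from 25 to 50 kb, 45.5% of 33 members and 36.1% from 50 to 100 kb, and 75.0% of 20 members and 40.8% over 100 kb. Members had the higher share in each of the 4 length classes. Across the 69 bound members, length and number of peaks rose together (Spearman's rho 0.58, described over genes that share the same 8 lists). The part that gene length or transcript level plays in these shares was not tested.

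**Figure D1:**
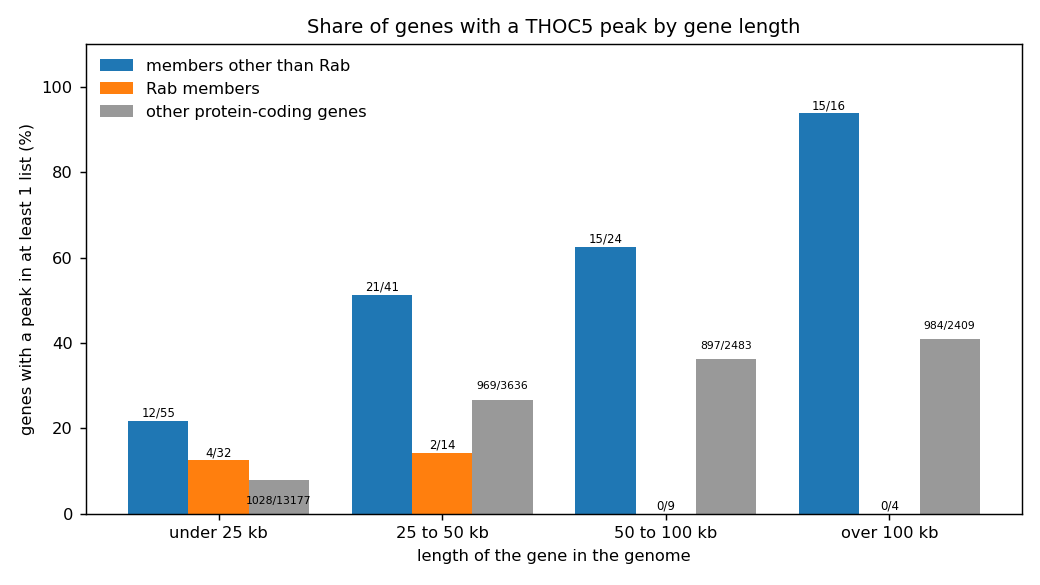
Share of genes with a peak in at least 1 list (vertical axis, %) by length of the gene (horizontal axis, 4 classes in kb), for members other than Rab genes, Rab genes and all other protein-coding genes. Numbers at the bars are bound genes over all genes of the class; no Rab gene over 50 kb had a peak, whereas 15 of 16 other members over 100 kb did.

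Families differed widely. Peaks were found in 10 of 24 Sec, 3 of 8 Cop, 5 of 15 Trappc, 7 of 12 Exoc, 3 of 8 Cog, 4 of 7 Golga, 16 of 30 Vps and 12 of 28 Ap genes, and in 3 of the 4 genes added by name. Only 6 of 59 Rab genes carried one (10.2%), beside 46.3% of the 136 other members. Rab genes had a median length of 23.2 kb, with 21.8 kb for those with a peak and 23.3 kb for those without. Among genes over 50 kb, 0 of 13 Rab genes were bound, whereas 30 of 40 other members and 38.5% of other protein-coding genes of that length were. Under 25 kb, 4 of 32 Rab genes were bound (12.5%), above the 7.80% of other protein-coding genes but below the 21.8% of other members, and from 25 to 50 kb 2 of 14 were (14.3%), below both. This comparison of lengths within the Rab family was made after its values were seen.

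Bound members made up 1.80% and 1.86% of bound genes in the Ctrl lists, 2.47% and 1.46% in Pi, 1.90% and 2.44% under GFP OE, and 1.94% and 2.07% under THOC5 OE. The mean was 1.99% ± 0.33 (SD, n = 8 lists). The Pi lists lie at both ends of this range, so the conditions overlap and no shift of the whole group between conditions was seen.

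The plus strand of the RefSeq promoter window of Nbas (mm10) is shown because the first peak site of the member with most peaks, found in 7 of 8 lists, lies next to it. It covers chr12:13268877-13269126, the 250 bases before the start, and capitals mark the 6 bases that the site covers. These rest on the Pi 1 peak alone, at a percentile of 12.0; the peaks of the other 6 lists begin 45 to 59 bases after the start. The same site runs on to 13269710 in intron 1. The RefSeq gene, with all its transcripts, starts 26 bases earlier than this transcript, at 13269101.
Nbas promoter: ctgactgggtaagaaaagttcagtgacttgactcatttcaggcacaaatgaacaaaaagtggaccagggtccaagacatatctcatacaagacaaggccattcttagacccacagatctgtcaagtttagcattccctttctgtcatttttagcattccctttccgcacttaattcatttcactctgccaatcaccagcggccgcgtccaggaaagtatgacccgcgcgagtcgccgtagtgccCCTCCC
Searched on both strands for the GC box GGGCGG, the CCAAT box CCAAT and the TATA box TATAAA, this window holds 1 CCAAT match and no other. Of 32851 RefSeq promoter windows of the same 250 bases, 33.8% hold a CCAAT, 32.7% a GC box and 12.4% a TATA box. A match is a description of the letters and not a measured site.

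Nbas, part of the tether that receives coatomer vesicles at the ER, carried far more peaks than any other member. It held 9 and 25 peaks in the Ctrl lists, 13 and 17 under Pi, 22 and 19 under GFP OE, and 28 and 21 under THOC5 OE. These are 154 peaks, or 25.9% of all member peaks, over a gene of 368 kb on chromosome 12 (13269101 to 13637380). Its best peaks stood at percentiles of 57.2 to 82.5. The means were 17.0 ± 11.3 peaks per list in Ctrl, 15.0 ± 2.83 under Pi, 20.5 ± 2.12 under GFP OE, and 24.5 ± 4.95 under THOC5 OE (SD, n = 2). Ctrl 1 was lowest and THOC5 OE 1 highest, but Ctrl 2 lies above both GFP OE lists, so the conditions overlap.

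The Nbas peaks merged into 38 sites, of which 22 were found in at least 4 lists, 11 in at least 6 and 1 in all 8. The site of all 8 lists lies in intron 39 of 51 (13453038 to 13453654) at percentiles of 5.22 to 52.2. The strongest repeated site, at exon 15 of 52 (13322748 to 13323386), was found in 7 lists and reached a percentile of 82.5. Of the 154 peaks, 48 were annotated to coding exons and 106 to introns. The centres of the peaks ran from 0.284 to 292 kb from the gene's start, so the last part of the gene's span held none. The last of these peaks, in GFP OE 2 alone, lies at exon 50 of 52 of the annotated transcript. Rint1 and Zw10, the partners of Nbas in its tether, were bound in 3 and 4 lists.

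**Figure D2:**
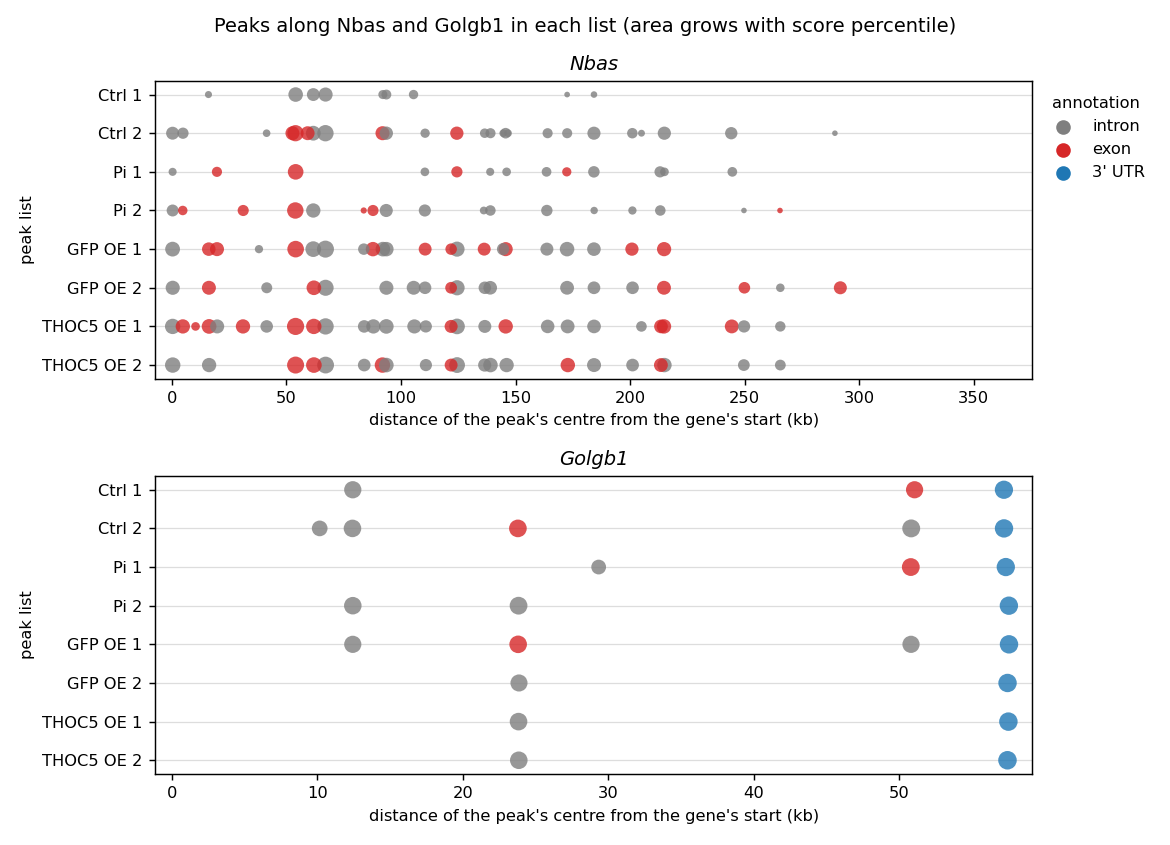
Peaks of Nbas (368 kb) and Golgb1 (58.0 kb) in each of the 8 lists, by distance of the peak's centre from the gene's start (horizontal axis, kb); the area of a point grows with the percentile of its score, and colour gives the annotation. Nbas peaks are spread from the start to 292 kb at sites repeated between lists, and all 8 lists share the Golgb1 peak in the 3' UTR.

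Among the coatomer subunits themselves, the peaks were few and differed by subunit. Copa, the alpha subunit, had 1 peak each in Pi 1, THOC5 OE 1 and THOC5 OE 2, and none in the other 5 lists. All 3 lie at its last exon, exon 33 of 33 (chromosome 1, 172121464 to 172122017), and were strong, at percentiles of 95.8, 96.3 and 96.5. Copb1, the beta subunit, had 1 peak in each of the 4 lists with a vector (GFP OE and THOC5 OE) and none in Ctrl or Pi. Its site is in intron 1 of 21 (chromosome 7, 114254009 to 114254557), at percentiles of 30.0, 33.0, 38.4 and 42.8. Copg2, a gamma subunit, was bound in 7 lists with 1 or 2 weak peaks each, and its best peak per list was at percentiles of 6.26 to 24.5. Copb2, Cope, Copg1, Copz1 and Copz2 had no peak.

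Of the genes of the COPII coat and ER exit, 9 of 12 were bound, the highest share of any role. Sec24b, which selects cargo for the coat, had 1 and 3 peaks in Ctrl, 1 and 1 under Pi, 3 and 2 under GFP OE, and 1 and 2 under THOC5 OE. Its best peaks per list stood at percentiles of 35.7 to 72.4, and 7 lists shared a site in intron 9 of 23 (chromosome 3, 130002415 to 130002980). Sec16b, a scaffold of ER exit sites, was missing only from Ctrl 1. Its best peak was at percentiles of 9.85 to 12.0 in the other Ctrl list and both Pi lists, and at 30.3, 38.5, 43.2 and 51.1 in the 4 vector lists. The Ctrl 2 peak lies at exon 2 of 26, whereas the 6 Pi and vector lists share a site at exon 27 of 27 of a non-coding transcript. The share of all genes with such a gap was not counted, and the difference in percentile was not tested.

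Mia3, also called TANGO1, loads collagen into COPII carriers. It had no peak in either Ctrl list, 3 and 2 peaks in Pi, 1 and 2 under GFP OE, and 2 and 3 under THOC5 OE. The best peak was at percentiles of 86.0 and 87.3 under Pi, 30.3 and 87.4 under GFP OE, and 86.9 and 87.9 under THOC5 OE. Peaks in exon 4 of 27 account for the strong values, at 183356676 to 183357362 of chromosome 1 in 4 lists and at 183357816 to 183358356 in 2. GFP OE 1 held only the site of intron 1 (183368927 to 183369524), which both THOC5 OE lists also held. Sec24c, another cargo selector, showed 1 peak in each Ctrl and each GFP OE list and none in Pi or THOC5 OE. Its Ctrl 1 peak is in exon 5 of 23, and the other 3 lie in intron 1 of 22. Sec24d was bound in 5 lists at percentiles of 7.79 to 33.5. Sec31b, of the outer coat, had 2 peaks in Ctrl 2, 1 in Pi 2, and 2 and 1 under THOC5 OE, with best peaks at percentiles of 3.82 to 26.5, and none elsewhere. Mia2, Sec23a and Sec31a had no peak.

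The 6 genes of the translocon and signal peptidase had no peak in any list. Their median length was 16.1 kb, and 7.80% of other protein-coding genes under 25 kb were bound. So few genes cannot be set apart from that share. Sec14l1 and Sec14l5, lipid-binding proteins, had 1 peak each in 1 list, and the other 6 Sec14l and Sec22 genes none.

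Of the golgins and Golgb1, 5 of 8 were bound, 3 of them in all 8 lists. Golgb1, or giantin, the large tether of the Golgi rim, held 3 and 5 peaks in Ctrl, 3 and 3 under Pi, 4 and 2 under GFP OE, and 2 and 2 under THOC5 OE. A site in its 3' UTR (chromosome 16, 36932069 to 36932851) was present in all 8 lists and always its best, at percentiles of 94.1 to 97.3. Its site in intron 3 of 21 lies on the span of 4930565N06Rik too, and the lists do not tell which transcript was bound there. Golga4, a golgin of the trans-Golgi, had 4 and 5 peaks in Ctrl, 2 and 2 under Pi, 2 and 1 under GFP OE, and 3 and 3 under THOC5 OE, with its best peaks at percentiles of 69.5 to 85.4. Both Ctrl lists held more Golga4 peaks than any of the 6 osteogenic lists. The share of all bound genes with this order was not counted, and the order was not tested. Golga3 had 1 peak in every list except Pi 2, which had 2, with its best peaks at percentiles of 32.6 to 68.8. Golga1 was bound in 6 lists with weaker best peaks, at percentiles of 18.2 to 42.0, and Golga5 in Ctrl 1 alone at 1.98. Golga2, Golga7 and Golga7b had no peak.

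**Figure D3:**
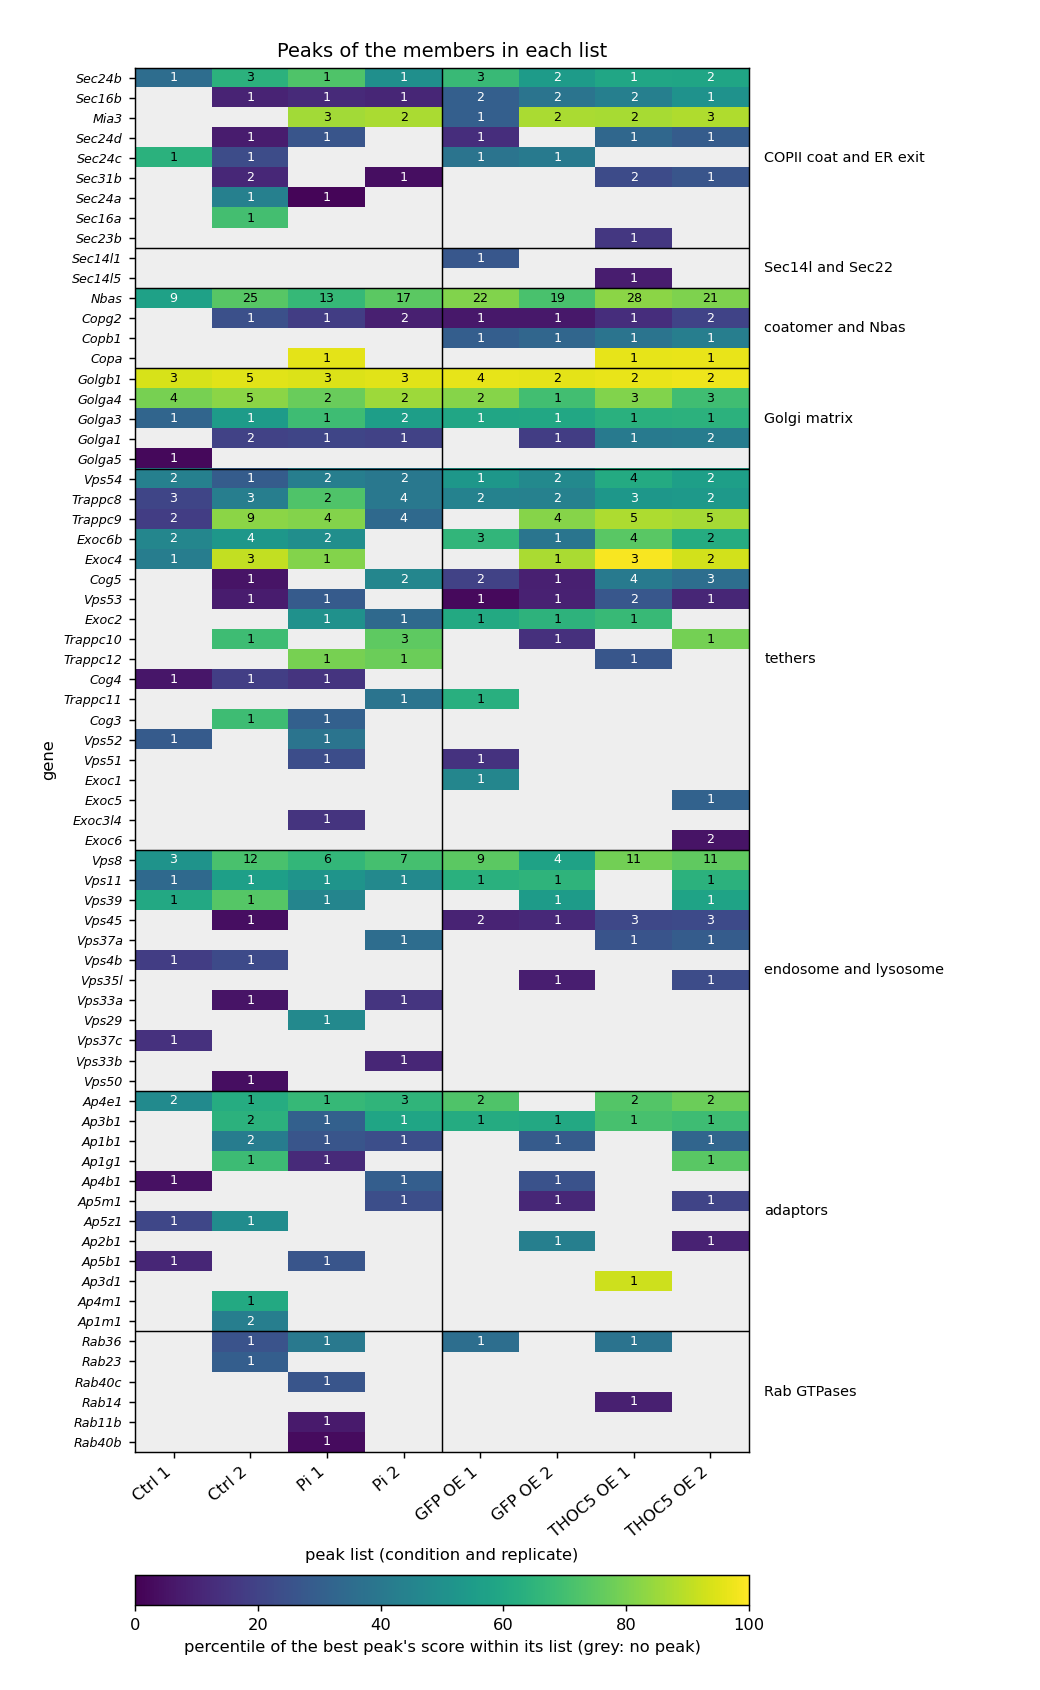
All 69 bound members (rows, by role) in the 8 lists (columns): colour gives the percentile of the best peak's score within its list, the number the peaks, grey no peak. Nbas, Golgb1, Golga3, Golga4, Sec24b, Trappc8, Vps54 and Vps8 fill every column, and Rab rows are nearly empty.

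Tethers gave 19 bound genes of 39. Trappc8, of the TRAPPIII complex that acts in early Golgi transport and autophagy, had 3 and 3 peaks in Ctrl, 2 and 4 under Pi, 2 and 2 under GFP OE, and 3 and 2 under THOC5 OE. Its best peaks per list ran from percentiles of 20.7 to 72.4 without a gap between conditions. Trappc9, of TRAPPII, had 2 and 9 peaks in Ctrl, 4 and 4 under Pi, 0 and 4 under GFP OE, and 5 and 5 under THOC5 OE, over 472 kb. A site at its exon 2 (chromosome 15, 73057741 to 73058350) was found in 5 lists at percentiles of 81.3 to 87.6. Trappc10, its partner in TRAPPII, was bound in 4 lists, 1 of each condition. Trappc12 had 1 peak in each Pi list, at exon 2 of 7 and at percentiles of 79.7 and 77.4, and 1 at exon 5 under THOC5 OE 1 at a percentile of 26.6.

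Vps54, of the GARP tether that receives endosome vesicles at the Golgi, had 2 and 1 peaks in Ctrl, 2 and 2 under Pi, 1 and 2 under GFP OE, and 4 and 2 under THOC5 OE. Its best peaks per list ran from percentiles of 28.9 to 61.0. Exocyst genes, which tether vesicles at the plasma membrane, were bound mainly where they are long. Exoc6b (452 kb) had 2 and 4 peaks in Ctrl, 2 and 0 under Pi, 3 and 1 under GFP OE, and 4 and 2 under THOC5 OE. Exoc4 (725 kb), the longest bound member, was missing from Pi 2 and GFP OE 1 and reached a percentile of 98.9 under THOC5 OE 1. Exoc2 was bound in both Pi lists, both GFP OE lists and THOC5 OE 1, once each. Its Pi 1 peak lies in intron 8 and the other 4 share a site in intron 16 of 28, so the Pi lists do not share a site. Of the COG complex, Cog5 was bound in 6 lists, Cog4 in both Ctrl lists and Pi 1, and Cog3 in Ctrl 2 and Pi 1.

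Of the other Vps genes, grouped by symbol alone as those of endosomes and lysosomes, 12 of 26 were bound. Vps8, a subunit of the early endosome tether CORVET, had 3 and 12 peaks in Ctrl, 6 and 7 under Pi, 9 and 4 under GFP OE, and 11 and 11 under THOC5 OE. Of its 63 peaks 61 lie in introns, and percentiles of the best peak ran from 51.3 to 78.6. Both THOC5 OE lists exceeded both GFP OE and both Pi lists, but Ctrl 2 exceeded them. Vps11, a core subunit of both CORVET and the lysosomal tether HOPS, had 1 peak in each list but THOC5 OE 1, all at 1 site in intron 15 of 15 (chromosome 9, 44348389 to 44348960). At 13.9 kb it had the most peaks for its length of the bound members, 6.28 per 100 kb and list, followed by Nbas with 5.23 and Golgb1 with 5.17. Vps45, which guides SNARE assembly on endosomes, had 0 and 1 peaks in Ctrl, none in Pi, 2 and 1 under GFP OE, and 3 and 3 under THOC5 OE, with best peaks at percentiles of 3.73 to 22.6. Vps37a, of the ESCRT-I complex, had 1 peak in Pi 2 and in each THOC5 OE list, at 1 site in intron 3 of 11. Vps4b, the ATPase that takes ESCRT complexes apart, had 1 peak in each Ctrl list and no other.

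Adaptors were bound for 12 of 28 genes, none in all 8 lists. Ap3b1, of the AP-3 adaptor to lysosomes, was missing from Ctrl 1 alone, and 6 lists shared a site in intron 4 of 26 at percentiles of 58.8 to 70.7. Ap4e1, of AP-4 at the trans-Golgi, was missing from GFP OE 2 alone, and its best peaks had percentiles of 47.9 to 77.6. Ap1b1, of AP-1, was bound in 5 lists. Ap5z1, of AP-5, had 1 peak in each Ctrl list in intron 16 of 16, at percentiles of 21.3 and 48.8, and no other. The Rab genes with a peak were Rab36 in 4 lists and Rab11b, Rab14, Rab23, Rab40b and Rab40c in 1 list each. Rab23, which acts in hedgehog signalling and cilia, was bound in Ctrl 2 at a percentile of 30.0 and Rab40c in Pi 1 at 26.5.

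The number of lists per gene was close to that of all bound genes. Of the members, 8 of 69 were bound in all 8 lists (11.6%), beside 9.87% of all bound genes. 25 were bound in at least 5 lists (36.2%, beside 26.7%), and 21 in 1 list only (30.4%, beside 37.2%). Merged over lists, the member peaks gave 233 sites. Of these 104 were found in 1 list only (44.6%, beside 49.1% of the sites of all genes), 58 in at least 4 lists (24.9%, beside 20.7%) and 2 in all 8 (0.86%, beside 2.64%). Those 2 are the Nbas site of intron 39 and the Golgb1 site of the 3' UTR. For the other 6 members bound in all 8 lists, no single site was shared by all 8.

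The peaks of members lay in introns more often than those of other genes, in 8 of 8 lists. In introns lay 68.2% and 74.0% of member peaks in Ctrl, 77.3% and 72.1% in Pi, 78.3% and 83.3% under GFP OE, and 74.0% and 80.5% under THOC5 OE, with a mean of 75.9% ± 4.86 (SD, n = 8). For other genes the mean was 58.1% ± 3.92, and the ranges of 68.2% to 83.3% and of 52.7% to 63.4% did not overlap. Coding exons held 17.5% ± 3.16 of member peaks and 31.6% ± 3.25 of others. Without Nbas the member mean fell to 12.7% ± 7.31, and it remained below the others in all 8 lists. The 3' UTR held 29 member peaks. Bound members and other bound genes have similar median lengths (43.3 and 48.1 kb), but these are medians over genes and not over peaks. Nbas (368 kb) held 25.9% of member peaks and Vps8 (222 kb) 10.6%. The part of gene length in the intron share was not tested. No test was made over peaks, which share genes and lists.

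**Figure D4:**
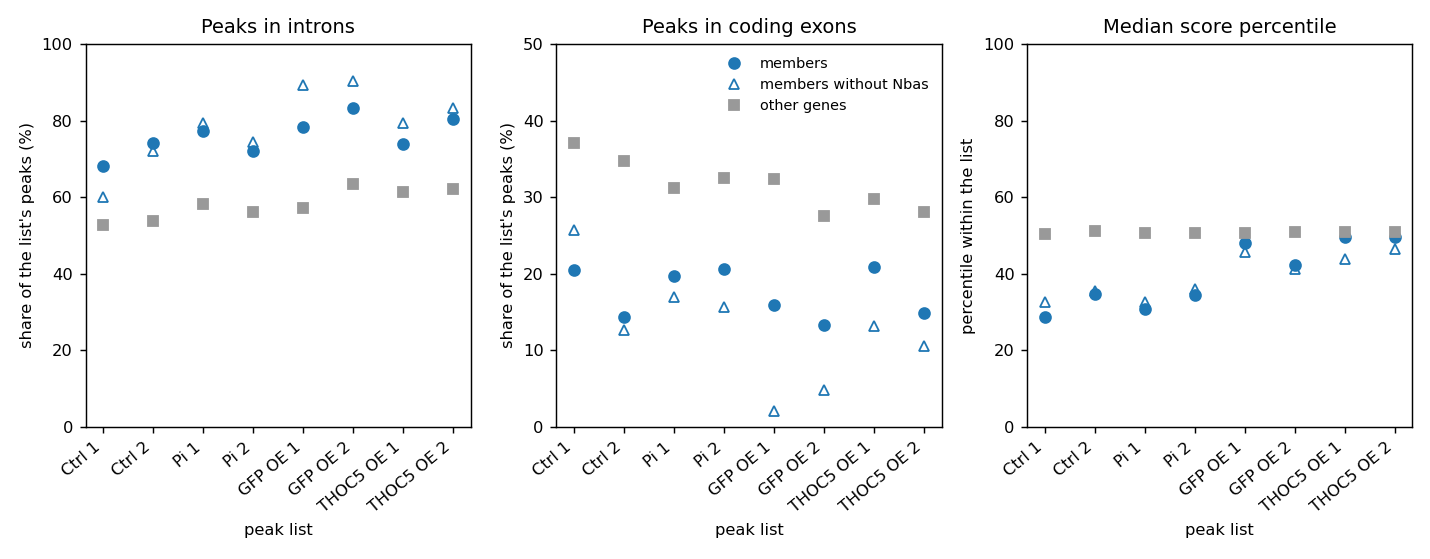
Share of peaks in introns (left) and coding exons (middle) and the median score percentile (right) in each list, for members, members without Nbas and other genes. Member points lie above other genes for introns and below them for exons in all 8 lists, and member medians are lower in Ctrl and Pi than in the vector lists.

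By their median, member peaks were weaker than those of other genes in all 8 lists, with a smaller gap in the lists with a vector than in Ctrl and Pi. Their median percentile was 28.8 and 34.8 in Ctrl, 30.7 and 34.4 under Pi, 48.1 and 42.3 under GFP OE, and 49.6 and 49.5 under THOC5 OE. The medians of other genes lay between 50.3 and 51.0 in all lists. Ranking within a list fixes them near the middle, since other genes hold nearly all peaks. The 4 vector lists and the other 4 do not overlap, with or without Nbas. Without Nbas the member medians were 32.6 to 35.9 in Ctrl and Pi and 41.3 to 46.5 in the vector lists. Intronic peaks of other genes had medians of 43.4 to 47.0 in Ctrl and Pi and of 43.8 to 45.0 in the vector lists, without such a step. They are 52.7% to 63.4% of the peaks of other genes, so the ranking limits how far their medians can move too. The lowest score kept was 14.9 to 29.0 in Ctrl and Pi and 6.31 to 12.6 in the vector lists, and its part in the step was not tested.

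Osteogenic medium was compared with growth medium first. With 2 lists a side an exact permutation test cannot give a p below 0.333, so the comparison is described and not tested. Bound in both Pi lists but no Ctrl list were Mia3, Trappc12 and Exoc2, 3 of the 58 members bound in any of these 4 lists (5.17%), beside 3.25% of all genes. The reverse held for Ap5z1, Vps4b and Sec24c, also 5.17%, beside 3.63%. These shares are near the background, and the counts are too small to set the members apart. Of the 3 gained genes, Mia3 alone was bound in all 6 lists from osteogenic medium and neither Ctrl list, a pattern shared by 8 of the 4051 bound genes (0.197%) and examined after its values were seen. Ap5z1 and Vps4b were bound in both Ctrl lists and none of the 6 others, 2.90% of the members, beside 1.48% of genes. With every list cut to the length of the shortest, Mia3, Trappc12 and Exoc2 still separated Pi from Ctrl, and of the reverse only Ap5z1 did. After this cut Mia3 did not keep a peak in all 6 osteogenic lists. Its only peak in GFP OE 1 was at a percentile of 30.3, below the 2572 strongest of the 3711 peaks of that list.

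**Figure D5:**
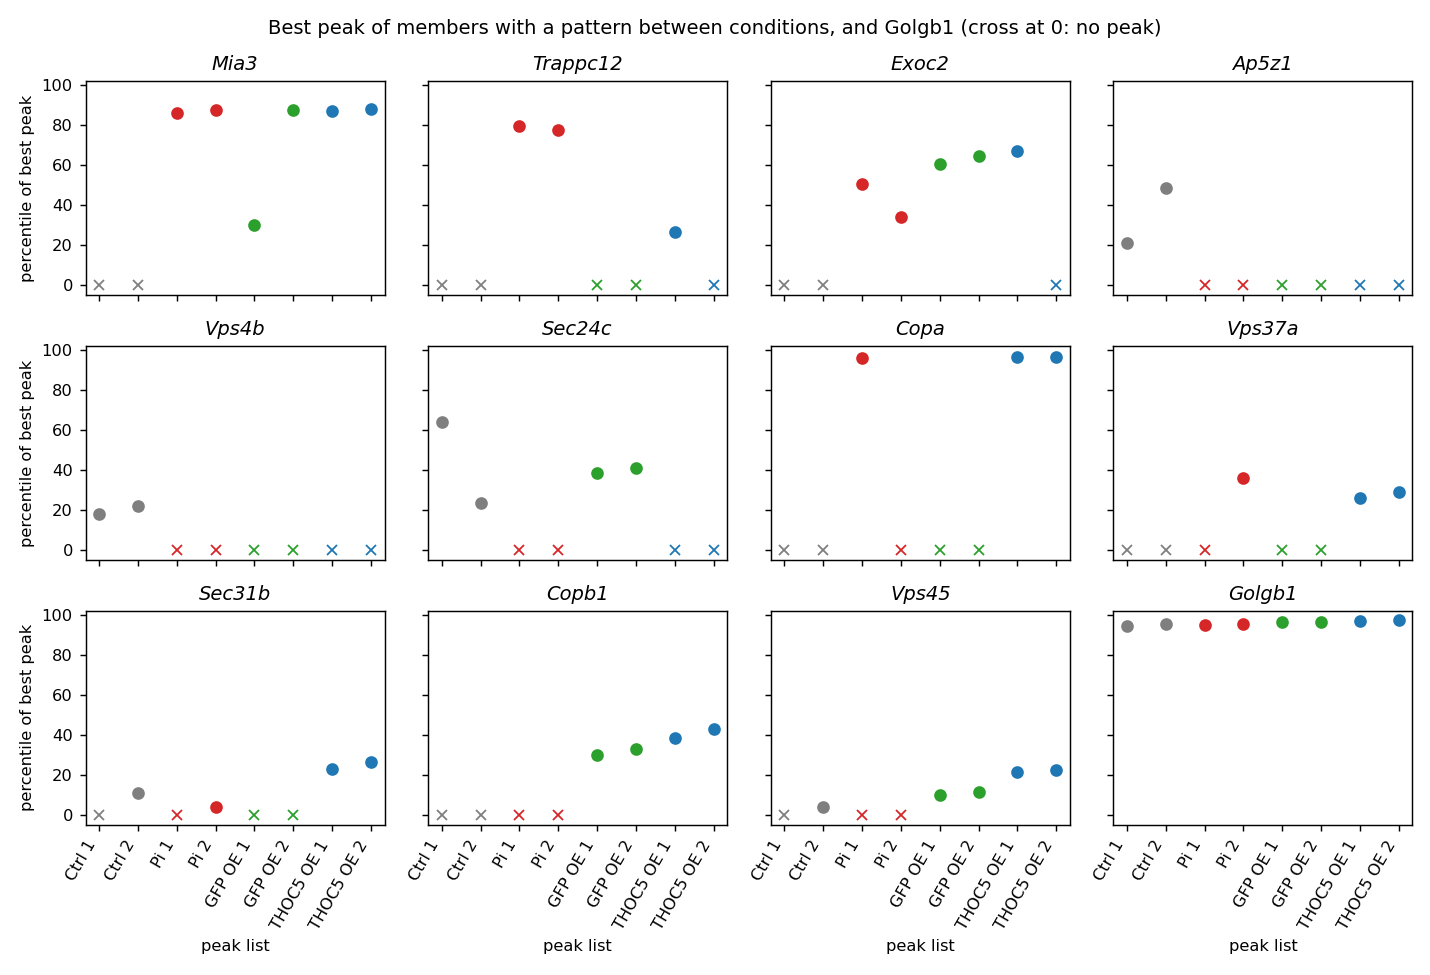
Percentile of the best peak (vertical axis) in each of the 8 lists (horizontal axis, coloured by condition) for the 11 members bound in both lists of a condition and neither of another, and for Golgb1; a cross at 0 marks no peak. Mia3 has peaks in all 6 osteogenic lists and neither Ctrl list, Copb1 in the 4 vector lists alone, and Golgb1 stays between 94.1 and 97.3.

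THOC5 overexpression was compared with GFP overexpression in the same medium. Copa, Sec31b and Vps37a were bound in both THOC5 OE lists but no GFP OE list, 3 of 48 members (6.25%), beside 6.34% of all genes. Sec24c alone showed the reverse (2.08%, beside 1.2%). The gain among members is thus at the background. Copa was also bound in Pi 1 and Vps37a and Sec31b in Pi 2, and the strength of the Copa peak there (95.8) was near that in THOC5 OE (96.3 and 96.5). With every list cut to the length of the shortest, only Copa of these 3 kept the pattern, and with the nearest gene in place of the annotated transcript only Sec31b did.

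GFP overexpression was compared with Pi, which shares the medium and the Pi lists of the first comparison. Copb1, Sec24c and Vps45 were bound in both GFP OE lists but no Pi list, 3 of 54 members (5.56%), beside 3.65% of all genes. Trappc12 alone showed the reverse (1.85%, beside 6.49%). Sec24c thus appears in all 3 comparisons, present in Ctrl and GFP OE and missing in Pi and THOC5 OE, with 1 peak wherever it was present. With every list cut to the length of the shortest, Sec24c and Trappc12 kept these patterns, and Copb1 and Vps45 did not.

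The 4 vector lists were also set against the 4 others by a two-sided exact permutation test of peaks per list, gene by gene over all 4051 bound genes. Here the smallest p is 0.0286, and 2315 genes would have to reach it for an adjusted p (Benjamini-Hochberg) under 0.05. No gene passed, and 108 had an unadjusted exact p under 0.05. More peaks in vector lists at that level were found for 1 member, Copb1 (1.45% of 69, beside 1.83% of all genes), and fewer for none (beside 0.839%). Copb1 had 1 peak in each vector list and 0 in each other list, with an exact permutation p of 0.0286 and an adjusted p of 1. Nbas had 22.5 peaks per vector list and 16.0 per other list, with an exact permutation p of 0.171, and Vps45 2.25 and 0.25, with a p of 0.0571. Copb1 was also the 1 member bound in all 4 vector lists and no other, beside 1.09% of genes, and none was bound in the 4 others alone (beside 0.691%).

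The same pattern was counted over sites, which was decided after the values were seen. In all, 5 of 233 member sites were found in all 4 vector lists and in neither Ctrl nor Pi (2.15%), beside 0.822% of all sites, and 0 in the 4 others alone (beside 0.285%). They lie in intron 1 of 21 of Copb1, intron 1 of 14 of Vps45, intron 15 of 22 of Cog5, intron 16 of 21 of Vps53 and at exon 29 of 52 of Nbas. Their percentiles ran from 2.40 to 44.0, so all are in the weaker part of their lists. With every list cut to the length of the shortest, none of the 5 kept this pattern, and 1 other site, in intron 15 of 28 of Trappc8, took it on. The Ctrl lists also differ from the vector lists in medium, which cannot be told apart from the vector there.

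A further set of 114 genes of the pathway that the symbols do not select was chosen by name, with earlier results of these data known. It is not the whole remainder of the pathway. Of these genes 58 were bound (50.9%, beside 18% of protein-coding genes). Their lengths ran from 2.885 kb (Use1) to 574 kb (Rabgap1l), and 38.5% of other protein-coding genes over 50 kb were bound. Shares by length were not counted for this set, so the part of length was not tested. Bound in all 8 lists were 7 of the set, or 12.1% of its bound genes, beside 9.87% of all bound genes. Among those in all 8 lists were Arfgef1, an activator of Arf GTPases, Trip11, a golgin, Rabgap1l, Rab11fip3 and Dennd4a, which regulate or bind Rab GTPases, and Myo5a, a vesicle motor. In 7 lists were Arfgef2, Cux1, Picalm, Dnm1, Rab3gap2, Eea1, Bicd1, Washc4, Dennd4c and Dennd5b. Several of these act on Rab proteins, but they were named because they were bound in at least 7 lists. Of the same kind, Rabgef1, Rab11fip2, Rab11fip4 and Tbc1d20 had no peak, and Rab11fip1 and Tbc1d5 were bound in 1 list each. The ER chaperones Hspa5, Hsp90b1, Pdia4, Canx and Calr, the collagen chaperone Serpinh1 and the coat subunits Sec13 and Arcn1 had no peak, whereas the ER chaperone Pdia3 had 1 peak each in Ctrl 2 and Pi 2, at percentiles of 79.3 to 84.3. All of those without a peak but Canx and Arcn1 are under 25 kb, where 7.80% of other protein-coding genes were bound. None of the 114 genes was bound in both Pi lists but no Ctrl list or the reverse (beside 3.25% and 3.63% of all genes). Scfd1, Nsf and Madd were bound in both THOC5 OE lists but no GFP OE list (beside 6.34% of all genes), and Gbf1 in both Pi lists but no GFP OE list (beside 6.49%). The shares of all genes are over genes bound in the lists compared. That base was not counted among the 114 genes, so their own shares are not given.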

How the data were processed

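RNA immunoprecipitated with THOC5 was described by 8 peak lists, 2 for each of 4 conditions; the 8 inputs were not analysed here. Each peak carries a score, which the authors deposited and which HOMER's annotation carried over, per the file headers; no header names its scale. FastQC, Bowtie2, MACS2, SAMtools and mm10 are named in the submitters' processing notes; their roles, the settings of peak calling and any use of inputs were not given in the sources used here. Scores ranked the peaks of each list; 1 alternative, added after seeing the data, applied a common floor to all lists.

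The transcript in the deposited annotation gave the gene of a peak, through RefSeq (GRCm38.p6); 28000 of 28032 peaks inside genes were named. Overlapping peaks of a gene were merged into sites. Sequences are RefSeq's. The permutation test was tested on simulated data. Members and lists were chosen with earlier results of these data known. Genes were named if bound in all 8 lists, if bound in both lists of a condition and neither of another, if among the 5 with most peaks or the 3 leading in a family, or, of the other pathway list, if bound in at least 7 lists; others were named after their values were seen. A gene that this rule names is not reported here. Alternatives were stricter scores, lists of equal length, the nearest gene, no introns, other readings of the symbols, each list left out and a replicate block. Python 3 with pandas and numpy was used.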

Additional observations from a re-analysis of the deposited data

Results flagged for a closer look

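Promoter peaks were left out of the calls of bound genes. A promoter peak assigned to a transcript of Trappc4, a subunit shared by the TRAPP complexes, was found in 3 lists, Ctrl 1, Ctrl 2 and Pi 2, at percentiles of 30.3, 52.5 and 56.9. It lies on the span of the ribosomal protein gene Rps25, which the deposited lists name as the nearest gene, and Trappc4 has no other peak. No vector list holds it.

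Vps26b, a subunit of the retromer, which returns receptors from endosomes to the Golgi, has no peak that the deposited annotation places in an exon, intron or UTR of it. Promoter peaks touched its promoter window in 5 lists, at percentiles of 3.73 in Ctrl 2, 2.79 in Pi 1, 17.8 in GFP OE 2, 28.5 in THOC5 OE 1 and 28.6 in THOC5 OE 2. Vps26b and Ncapd3 start on opposite strands there, and 4 of these peaks have Ncapd3 as nearest gene. The Pi 1 peak lies mostly on the span of Vps26b itself. The 70 bases between both starts, chr9:27030095-27030164 on the plus strand (mm10, RefSeq), are shown because they belong to neither gene; capitals mark bases covered by a peak, here all of them, in Pi 1 and GFP OE 2.
Vps26b and Ncapd3: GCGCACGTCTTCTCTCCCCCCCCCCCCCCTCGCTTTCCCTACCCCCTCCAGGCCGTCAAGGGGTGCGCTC
The lists give no strand for a peak, so the transcript bound there is not known.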

How the results depend on the processing

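Of 134 values under alternatives, 90 stayed close to the main value and 44 moved. A count was called close by its size alone, whichever genes it held, and a share by the spread between replicate lists. Without introns the count for Ctrl not Pi stayed close, but its genes, Golga4 and Vps39, were not those of the main result. For THOC5 OE not GFP OE, the counts without introns and with a common score floor stayed close, with only Copa shared. The members bound at all fell from 69 to 28 with scores at or above the list's median and to 36 without introns, and those in all 8 lists from 8 to 4 and 1. With the median score, 1 member was bound in both Ctrl and neither Pi list, 0 in GFP OE but not THOC5 OE, 0 in GFP OE but not Pi, and exons held 25.8% of peaks. With lists of 2572 peaks the counts were 1 (Ctrl not Pi), 1 (THOC5 OE not GFP OE) and 1 (GFP OE not Pi). With the nearest gene they were 1 (THOC5 OE not GFP OE) and 2 (Pi not GFP OE), and members made up 1.35% of bound genes. Without introns 0 were bound in GFP OE but not THOC5 OE, 0 in GFP OE but not Pi, and members made up 1.10% of bound genes.

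Settings chosen after seeing the data were a common score floor of 29.0, which gave 2 members in Pi but not GFP OE and 2 sites of the 4 vector lists alone instead of 5 (1 with equal lists, none of the 5), and the exon share without Nbas, 12.7%. Leaving out 1 list at a time gave 3 to 10 members for Pi not Ctrl, 3 to 9 for Ctrl not Pi, 5 to 8 for THOC5 OE not GFP OE, 2 to 5 for GFP OE not THOC5 OE, 4 to 5 for GFP OE not Pi and 2 to 13 for Pi not GFP OE, since 1 list then stands for a condition. The highest values came without Pi 2 (10 and 13), Ctrl 1 (9), THOC5 OE 2 (8) and GFP OE 2 (5).

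With a replicate block the vector comparison gave 0 genes after adjustment and 0 at an unadjusted exact permutation p under 0.05, as its smallest p is 0.0556; equal lists gave 66 and presence of any peak 72 unadjusted, beside 108. Samples share only a number: deviations of same-numbered lists correlated between -0.40 and 0.37. Depth of the libraries was not read.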
